A study of Mus musculus with 36 samples.

Results

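The 31 genes described here were highest at the DN2 stage of mouse T cell development, standing above both the stage before it and the stage after it. They were selected on measured values. Each gene was read from its probe set with the highest mean level, and it was kept when its mean log2 level on the 3 DN2Kit+ arrays was at least 1 above the mean on 3 ETPFlt3hi arrays, at least 1 above the mean on 3 DN3 arrays, and at least 6. Of 18193 genes measured, 33 met these thresholds, and 31 remained after Fcer1g and Deptor were left out by name. Because these 9 arrays chose the genes, the DN2Kit+ peak itself is given below as a description with no test. The tests compare populations on arrays that took no part in the choice.

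The study profiled sorted blood progenitors of C57BL6 mice of both sexes on 36 one-colour arrays to characterise the earliest thymic progenitors and the marrow cells that seed the thymus. All samples are labelled as 1 week old with a normal developmental stage, the Adult_ETP samples too, and no genetic change or treatment is given for any group. Levels are RMA values, a normalized log2 scale, so a difference of 1 is a change of 2-fold. The arrays form 2 deposit sets that were normalized apart, so levels are compared only within a set. Set 1 holds 15 arrays, 3 for each of 5 populations, all from pools of several mice. Its marrow populations are LSKFlt3-CD48-CD150+, sorted as stem cells, and LSKFlt3hi IL7R+, which the labels name as seeding cells of the thymus, and its thymic populations are ETPFlt3hi (early thymic progenitors), DN2Kit+ and DN3. Set 2 holds 21 arrays, with 3 more of each of these populations except DN2Kit+, 4 of CLP (common lymphoid progenitors in general usage), 2 of Adult_ETP and 3 of Pro_B, the B cell progenitors. DN2Kit+ cells were thus measured on 3 arrays of 1 set only. Nothing in the labels of set 2 tells whether its samples were pools, and p-values measure the spread between these samples.

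Early thymic progenitors keep the potential to form B, myeloid, dendritic and natural killer cells as well as T cells. Under Notch signals they pass to the DN2 stage, where they still carry the growth factor receptor Kit, begin to display the interleukin 2 receptor alpha chain (Il2ra) and start the T cell programme under Tcf7, Gata3 and Bcl11b. At DN3 they have lost Kit, have committed to the T lineage and rearrange the T cell receptor beta gene.

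The transcripts Il2ra and Kit fitted the labels. Il2ra lay between 12.20 and 12.36 on the DN2Kit+ arrays and between 4.67 and 5.48 on the ETPFlt3hi arrays of set 1. Kit lay between 7.42 and 7.75 at DN2Kit+ and between 5.60 and 6.09 at DN3. Ptcra, the pre-T cell receptor alpha chain, was intermediate at DN2Kit+, with 7.09 to 8.53 against 11.25 to 11.84 at DN3 and 3.58 to 4.25 at ETPFlt3hi. Bcl11b and Cd3e had DN2Kit+ means of 11.70 and 10.38, nearer to 12.22 and 12.10 at DN3 than to 4.39 and 5.07 at ETPFlt3hi. Thy1 likewise had means of 7.78, 11.94 and 12.30 at ETPFlt3hi, DN2Kit+ and DN3. Cd44 fell at each of these stages, with means of 8.74, 6.49 and 3.8. The DN3 arrays of set 2 spread more widely in Kit, from 5.67 to 7.92. Transcripts of late granulocytes (S100a8, S100a9, Ltf, Ngp and Camp) averaged 4.14 to 4.61 on the thymic arrays of set 1 and 5.24 to 5.64 on those of set 2, but reached 8.36 on a marrow array of set 1, 8.65 on a stem cell array of set 2, 9.50 on a CLP array and 7.36 to 8.55 on the Pro_B arrays. Their part in the marrow results below was not tested, and calls on members that ended without the arrays richest in them are named beside the result.

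Sequences upstream of the start were available from RefSeq (GRCm38.p6) for 25 of the 31 genes. The 250 bases before the start are shown for the gene with the largest peak (Cpa3), a gene near the lower end of the scale before DN2 (Esm1), both genes shared with stem cells that have a window (Muc13, the first of its windows, and Plscr1) and the integrin whose probe sets all gave the same picture (Itga4). Capitals mark matches to the motifs spelled out after the sequences. The windows are Cpa3 at chr3:20242182-20242431 (minus strand), Esm1 at chr13:113209409-113209658 (plus strand), Muc13 at chr16:33793787-33794036 (plus strand), Plscr1 at chr9:92249944-92250193 (plus strand) and Itga4 at chr2:79255176-79255425 (plus strand), each written 5′ to 3′ on the strand of the gene.
Cpa3: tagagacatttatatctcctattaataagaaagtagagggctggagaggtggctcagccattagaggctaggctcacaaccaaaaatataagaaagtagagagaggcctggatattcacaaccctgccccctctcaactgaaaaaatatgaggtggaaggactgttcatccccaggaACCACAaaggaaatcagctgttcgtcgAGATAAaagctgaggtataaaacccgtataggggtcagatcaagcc
Esm1: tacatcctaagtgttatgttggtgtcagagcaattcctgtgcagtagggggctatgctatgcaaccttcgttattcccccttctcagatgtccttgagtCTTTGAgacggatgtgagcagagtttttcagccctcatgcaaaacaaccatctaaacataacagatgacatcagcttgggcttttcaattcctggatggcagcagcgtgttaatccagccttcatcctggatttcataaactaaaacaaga
Muc13: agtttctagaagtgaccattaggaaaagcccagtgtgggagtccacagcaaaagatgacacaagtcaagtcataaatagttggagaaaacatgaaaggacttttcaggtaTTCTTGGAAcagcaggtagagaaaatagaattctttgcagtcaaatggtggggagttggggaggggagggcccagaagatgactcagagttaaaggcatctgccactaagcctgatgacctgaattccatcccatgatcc
Plscr1: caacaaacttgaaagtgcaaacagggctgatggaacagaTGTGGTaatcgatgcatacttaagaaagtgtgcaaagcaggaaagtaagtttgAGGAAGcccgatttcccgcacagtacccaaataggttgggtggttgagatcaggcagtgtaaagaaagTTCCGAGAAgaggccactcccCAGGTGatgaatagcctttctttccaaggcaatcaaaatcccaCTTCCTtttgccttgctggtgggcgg
Itga4: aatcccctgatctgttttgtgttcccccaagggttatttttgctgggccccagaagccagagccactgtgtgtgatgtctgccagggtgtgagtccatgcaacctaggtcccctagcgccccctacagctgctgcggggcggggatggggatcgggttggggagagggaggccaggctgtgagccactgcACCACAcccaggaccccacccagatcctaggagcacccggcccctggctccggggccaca

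The motifs were searched on both strands of the 300 bases around each start (250 before, 50 after), and they were chosen after the genes were known. A gene counted when any of its windows held the motif, so a match can lie in bases not shown. Several windows were available for 9 of the 25 genes, and the 27025 genes had 32851 windows. Genes with more windows have more chances of a match, so the shares are not strictly alike. The GATA motif AGATAA, marked in Cpa3, was found in 3 of the 25 genes (12%) and in 12.7% of 27025 genes with a window. The Runx motif TGTGGT, which reads ACCACA on the other strand and is marked in Cpa3, Plscr1 and Itga4, was in 4 of 25 (16.0%) and in 18.9% of all genes. The TCF and LEF motif CTTTGA, marked in Esm1, was in 8 of 25 (32.0%) and in 18.2% of all genes. The STAT motif TTCNNNGAA, marked in Muc13 and Plscr1, was in 5 of 25 (20%) and in 9.55% of all genes. The Ets motif AGGAAG was in 10 of 25 (40.0%) against 38.4%, the E-box CACCTG in 8 of 25 (32.0%) against 22.6%, and the RBPJ motif GTGGGAA, through which Notch acts, in 1 of 25 (4.0%) against 7.25%. These are matches of letters, described without a test, and no binding was measured.

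In the set that chose them, 28 of the 31 genes had every DN2Kit+ array above every ETPFlt3hi and DN3 array, a pattern found in 2.97% of all genes. Among all genes, 1.76% were at least 1 higher at DN2Kit+ than at ETPFlt3hi and 2.13% at least 1 higher than at DN3, and nothing is read from the members' share because the rule fixed it. The smaller of the 2 differences ran from 1.01 to 4.09 with a median of 1.36. It was at least 2 for 4 genes and under 1.5 for 20, so most peaks were modest. The members' DN2Kit+ means ran from 6.20 to 12.33, with a median of 8.08, and the SD over the 3 arrays had a median of 0.20 and a maximum of 0.57. Just inside the threshold stood Aldh1b1 (smaller difference 1.04), Clec2d (1.01) and Arap2 (1.01), and just outside it Tyms (0.9995), Nudt7 (0.99) and Tuba8 (0.96). In bulk samples, fewer cells with a transcript and less transcript per cell cannot be told apart.

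**Figure D1:**
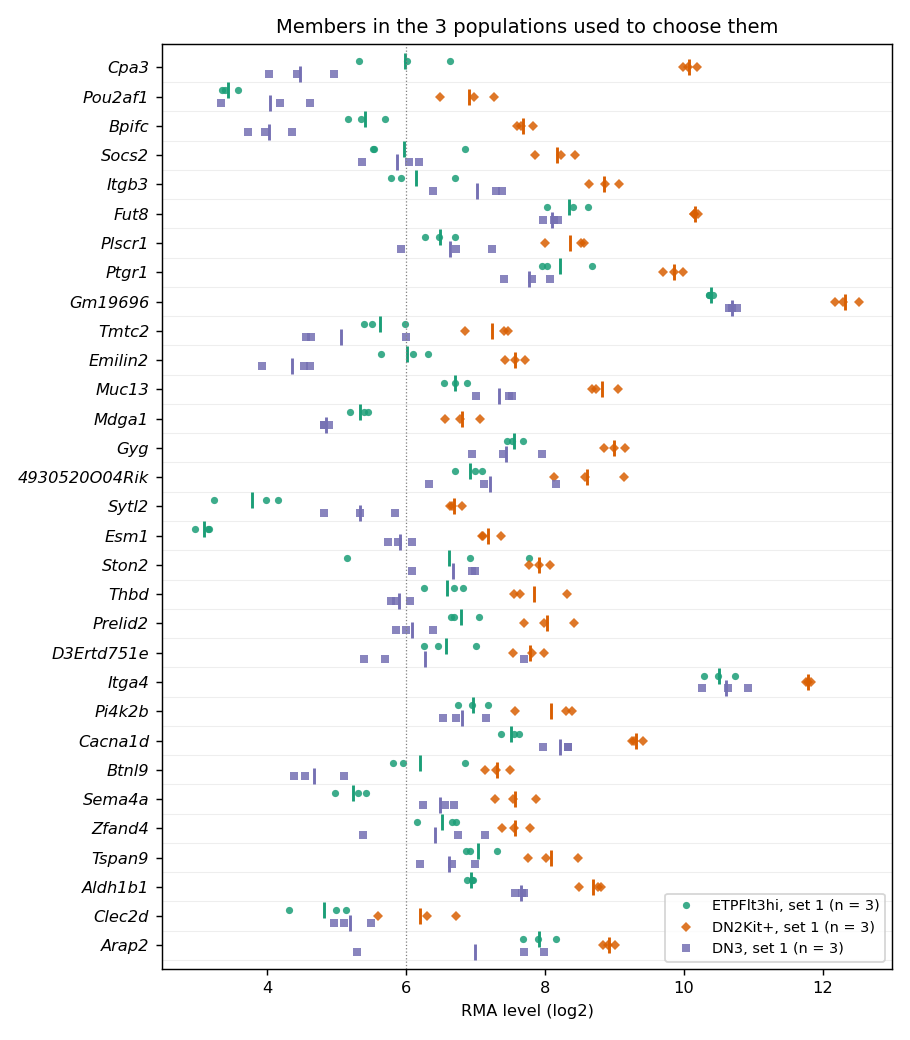
RMA level (log2, horizontal axis) of each of the 31 genes on the 3 ETPFlt3hi (green circles), 3 DN2Kit+ (orange diamonds) and 3 DN3 (purple squares) arrays of set 1, with a vertical tick at each mean and a dotted line at the level threshold of 6. Genes are ordered by the smaller of their 2 differences, from Cpa3 (4.09) to Arap2 (1.01), and the orange points lie to the right of all others in 28 genes.

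Enzymes included the strongest member. Cpa3, the carboxypeptidase of mast cell granules, measured 10.06, 9.98 and 10.19 on the DN2Kit+ arrays. It stood at 6.01, 5.32 and 6.64 at ETPFlt3hi and at 4.02, 4.42 and 4.96 at DN3, and at 3.24 to 3.98 on the marrow arrays of the same set. The groups did not overlap, and each stage up to DN2Kit+ stood above the one before it. Fut8, which adds core fucose to glycoproteins, measured 10.14, 10.15 and 10.20 at DN2Kit+ against 8.03, 8.40 and 8.62 at ETPFlt3hi and 8.18, 7.97 and 8.14 at DN3, and 1 of its 2 other probe sets showed both differences above 1. Ptgr1, a prostaglandin and leukotriene reductase, measured 9.99, 9.70 and 9.86 at DN2Kit+ and lay between 7.41 and 8.68 on the ETPFlt3hi and DN3 arrays. Gyg, the glycogenin that primes glycogen synthesis, Aldh1b1, a mitochondrial aldehyde dehydrogenase, and Pi4k2b, a phosphatidylinositol kinase, peaked by less, with DN2Kit+ arrays at 8.85 to 9.15, 8.49 to 8.81 and 7.57 to 8.39.

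Of the 14 other measured genes on a list of mast cell and basophil markers, which does not hold Fcer1g, 0 reached a mean of 6 at DN2Kit+. The alpha and beta chains of the IgE receptor, Fcer1a and Ms4a2, had DN2Kit+ means of 2.62 and 2.71. Its gamma chain Fcer1g, which other receptors of natural killer and myeloid cells share, met the thresholds and was left out by name, with 7.10, 7.22 and 7.52 at DN2Kit+ against 5.73 to 6.16 at ETPFlt3hi and 5.16 to 6.43 at DN3. The granule proteases Mcpt1, Mcpt2 and Mcpt4 had means of 2.69, 2.65 and 2.98. The closest were the stem and mast cell factor Gata2, with 5.93, and the tryptase Tpsb2, just under 6. Apart from Cpa3, 0 of the list's genes differed by 1 or more between DN2Kit+ and either neighbouring stage, and the median difference over all 15 was 0.03 from ETPFlt3hi and -0.16 from DN3.

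A further group, put together by what the proteins are known to do, holds adhesion and surface proteins. Itga4, the alpha4 integrin chain that binds VCAM1 and fibronectin, measured 11.78, 11.76 and 11.83 at DN2Kit+ against 10.73, 10.49 and 10.28 at ETPFlt3hi and 10.26, 10.92 and 10.63 at DN3. Its peak was small but uniform, and all 4 of its other probe sets had both differences above 1. Itgb3, the beta3 integrin chain, measured 8.63, 9.07 and 8.86 at DN2Kit+ against 5.92, 6.71 and 5.79 at ETPFlt3hi and 7.38, 7.30 and 6.39 at DN3. Its 1 other probe set had a DN2Kit+ mean of 4.35 and showed no peak. Emilin2, a matrix glycoprotein, lay between 5.64 and 6.32 at ETPFlt3hi, between 7.42 and 7.71 at DN2Kit+ and between 3.93 and 4.62 at DN3, so its later level was below the earlier one. Sema4a, a semaphorin, was at 4.98 to 5.42, then 7.28 to 7.88, then 6.24 to 6.69, so that its later level was above the earlier one. Muc13, a transmembrane mucin, Mdga1, a GPI-anchored cell contact protein, Thbd (thrombomodulin), Tspan9, a tetraspanin, Btnl9, a butyrophilin-like protein, and Clec2d, the ligand of an inhibitory natural killer receptor, completed the group. The 1 other probe set each of Muc13, Tspan9 and Btnl9 did not show both differences. That of Btnl9 was only 0.02 higher at DN2Kit+ than at ETPFlt3hi. Clec2d had the widest DN2Kit+ spread of all members, at 6.73, 6.29 and 5.59, and its lowest array lay close above a DN3 array at 5.49.

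Secreted, vesicle and signalling proteins followed. Esm1, a secreted proteoglycan best known from endothelium, measured 7.36, 7.11 and 7.09 at DN2Kit+ and 5.89, 5.74 and 6.09 at DN3. At every earlier stage of set 1 it lay between 2.66 and 3.16, so DN3 kept an intermediate level. Bpifc, of a family of lipid-binding proteins, measured 7.60, 7.65 and 7.83 at DN2Kit+ against 5.16 to 5.70 at ETPFlt3hi and 3.73 to 4.36 at DN3. Sytl2, a Rab27 effector in vesicle release, was at 6.62 to 6.80 at DN2Kit+, 3.23 to 4.15 before and 4.81 to 5.85 after. Cacna1d, the pore chain of an L-type calcium channel, was at 9.26 to 9.41, with 7.37 to 7.63 before and 7.98 to 8.34 after. Its 1 other probe set had a DN2Kit+ mean of 4.38 and showed no peak. For the endocytic adaptor Ston2, 7.77, 5.15 and 6.92 at ETPFlt3hi overlapped 8.07, 7.77 and 7.92 at DN2Kit+. Arap2, a GTPase-activating protein, measured 9.01, 8.91 and 8.84 at DN2Kit+ and 5.29, 7.99 and 7.70 at DN3, where 1 array lay far below the other two.

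Socs2, an inhibitor of cytokine receptor signals that is itself induced through STAT5, measured 8.44, 7.86 and 8.24 at DN2Kit+ against 6.84, 5.54 and 5.52 at ETPFlt3hi and 6.19, 5.36 and 6.05 at DN3. Of its 5 other probe sets, 1 had both differences above 1. Among 37 measured genes on a list of cytokine receptors and their signalling proteins, 7 were at least 1 higher at DN2Kit+ than at ETPFlt3hi and 5 at least 1 lower, with a median difference of 0.08. Against DN3, 2 were higher and 3 lower. The related inhibitors did not share the pattern: Socs3 had means of 3.66, 4.83 and 7.21 at ETPFlt3hi, DN2Kit+ and DN3, Socs1 of 3.72, 3.99 and 4.27, and Cish of 5.90, 5.28 and 5.07. Stat5a had means of 8.53, 10.20 and 10.03, with no peak, and the receptor chain Il7r of 8.65, 10.49 and 10.14.

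Plscr1, a phospholipid scramblase that interferons induce, measured 8.56, 7.99 and 8.51 at DN2Kit+ against 6.27 to 6.71 at ETPFlt3hi and 5.92 to 7.23 at DN3. The listed interferon response genes went the other way over the same step. Of 12 measured, 9 were at least 1 lower at DN2Kit+ than at ETPFlt3hi, with a median difference of -1.67, and 0 were higher. For example, Oasl2 and Ifit3 differed by -2.75 and -2.32. Between DN2Kit+ and DN3, 0 of the 12 differed by 1.

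Pou2af1, the coactivator of Oct factors known from B cells, measured 6.98, 6.48 and 7.27 at DN2Kit+ against 3.35, 3.57 and 3.38 at ETPFlt3hi and 3.34, 4.62 and 4.18 at DN3. It also stood at 6.26, 6.21 and 5.03 in LSKFlt3hi IL7R+ cells, a mean of 5.83 that was under the level threshold of 6. In set 1 early thymic progenitors thus stood below both these seeding cells and DN2Kit+ cells. Of the 15 other measured B lineage genes, 6 had DN2Kit+ means of at least 6: Rag1 (9.64), Ighm (7.79), Cd79b (7.56), Bst1 (7.55), Vpreb1 (7.31) and Cd72 (6.04). Rag1 is shared with T cell progenitors. The defining B cell genes were low, with 4.96 for Pax5, 4.16 for Ebf1, 4.07 for Cd79a and 2.86 for Ms4a1. Over the 16 B lineage genes, 2 were at least 1 higher at DN2Kit+ than at ETPFlt3hi, Rag1 and Pou2af1 (both by 3.47), and 1 was at least 1 lower, Ighm (-1.90), with a median difference of 0.01.

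Less studied genes made up the remainder. Gm19696 measured 12.28, 12.52 and 12.17 at DN2Kit+ against 10.36 to 10.42 at ETPFlt3hi and 10.65 to 10.76 at DN3. Tmtc2, an endoplasmic reticulum protein, measured 6.84 to 7.47 at DN2Kit+ and at most 6.00 on the neighbouring arrays. Prelid2 and Zfand4 had DN2Kit+ arrays at 7.70 to 8.42 and 7.38 to 7.78, above all neighbouring arrays. For 4930520O04Rik and D3Ertd751e, 1 DN3 array each, at 8.16 and 7.70, overlapped the DN2Kit+ range. In all, 18 members had 30 further probe sets, of which 9, from 6 members, showed both differences above 1 and 0 showed the opposite by 1. Among the 16 further probe sets with a DN2Kit+ mean of at least 6, 7 showed both.

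Looking back to the marrow of set 1, 28 members were highest in DN2Kit+ of all 5 populations and 3 were higher still in LSKFlt3-CD48-CD150+ stem cells. These 3 were Socs2, Plscr1 and Muc13, and they were lower in LSKFlt3hi IL7R+ cells. Muc13 measured 9.27, 9.55 and 9.80 in stem cells, 6.86, 6.36 and 6.23 in LSKFlt3hi IL7R+ cells, 6.54 to 6.87 at ETPFlt3hi and 8.67 to 9.05 at DN2Kit+. Plscr1 measured 9.05, 9.21 and 9.72 in stem cells and 6.31 to 7.43 in LSKFlt3hi IL7R+ cells. Socs2 measured 8.97, 8.82 and 8.64 in stem cells and 6.10 to 7.07 in LSKFlt3hi IL7R+ cells. In 20 members neither marrow population came within 1 of the DN2Kit+ mean. Stem cells came within 1 of it, or above, in 8 members and LSKFlt3hi IL7R+ cells in 6. All these counts use the DN2Kit+ values that chose the members, and the rule had already set ETPFlt3hi and DN3 lower. They are a description, and nothing is read from them about how particular the peak is.

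**Figure D2:**
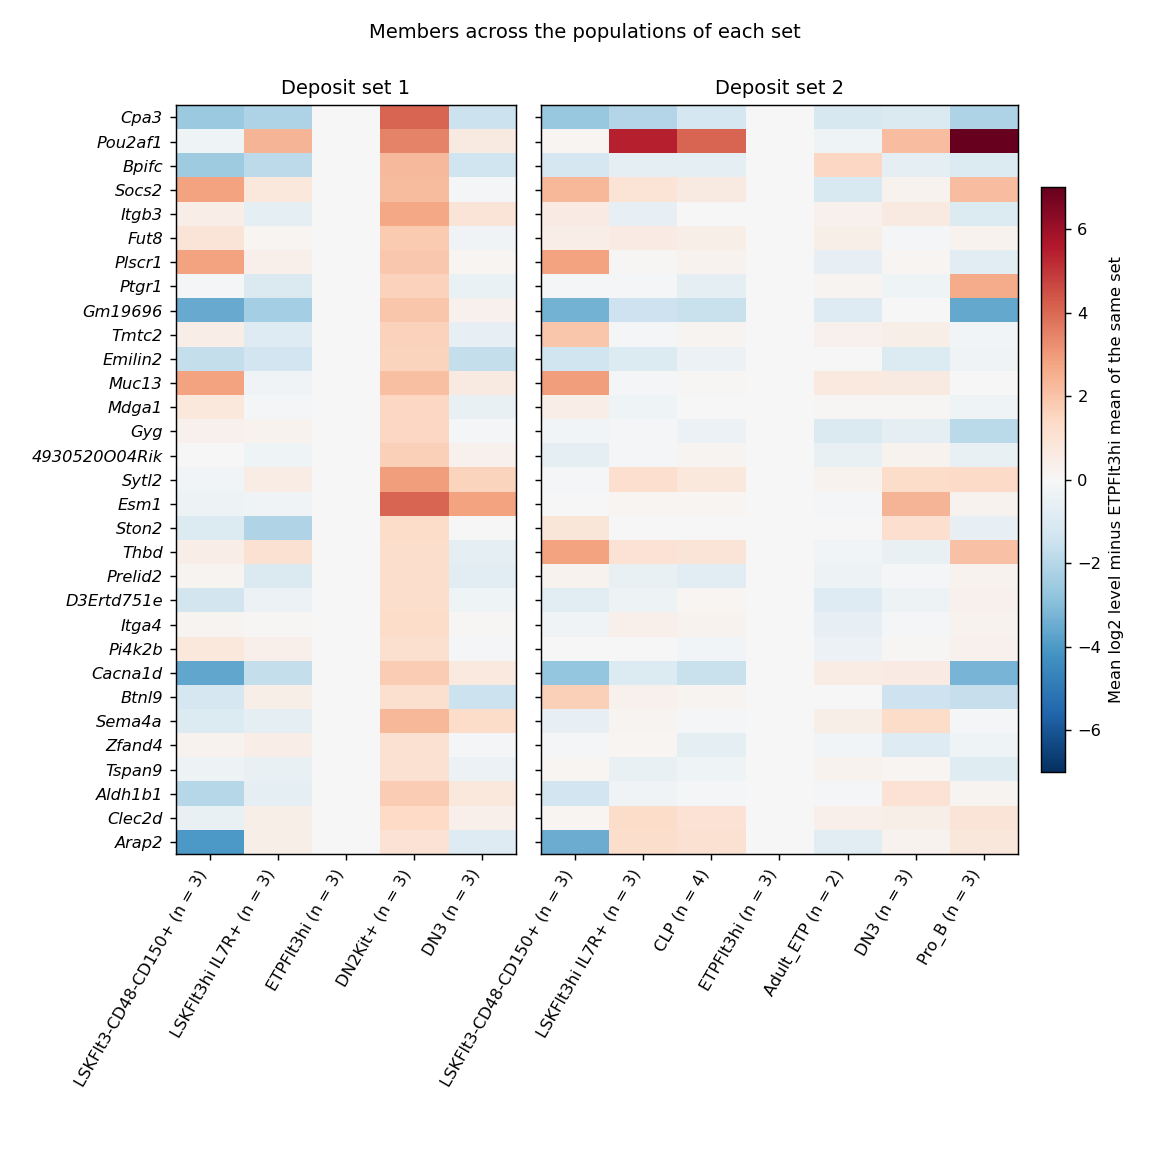
Mean log2 level of each gene in each population minus the ETPFlt3hi mean of the same set (red higher, blue lower, white near 0), for the 5 populations of set 1 (left) and the 7 of set 2 (right), with genes in the same order. DN2Kit+ is the only red column throughout in set 1, where the rule required it to be. Muc13, Plscr1 and Socs2 are red in stem cells of both sets, and Pou2af1 is darkest in LSKFlt3hi IL7R+, CLP and Pro_B of set 2.

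Tests were run with limma on the arrays of set 2, fitted over all 7 populations, and on the marrow arrays of set 1, fitted over all 5. The set 1 fit compares arrays that did not choose the genes, but its estimate of the spread also draws on the 9 arrays that did. Fitted on the marrow arrays of set 1 alone, 9 of its 10 calls on members held, and Itgb3 did not (limma adjusted p = 0.0725). Calls required a difference of at least 1 and a p under 0.05 after Benjamini-Hochberg adjustment over the 18193 genes. These tests cannot address the peak itself, since set 2 has no DN2Kit+ arrays.

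In set 2, several members stood higher at DN3 than at ETPFlt3hi. Of the 31 genes, 5 were higher at DN3, where 1.91% of all genes were, and 1 was lower, where 3.26% of all genes were. The median difference was 0.13 over the members and 0.06 over all genes. Esm1 measured 5.65, 5.79 and 5.63 at DN3 and 2.96, 3.61 and 3.37 at ETPFlt3hi, groups far apart, and was higher by 2.37 ± 0.19 (SE) with an adjusted p of 2.88e-08 in limma. On the arrays of the 5 remaining populations of set 2 Esm1 lay between 3.04 and 3.75, so the DN3 arrays stood apart from all others. Pou2af1 measured 5.69, 6.22 and 6.35 at DN3 and 3.82, 3.38 and 4.51 at ETPFlt3hi, higher by 2.19 ± 0.53 (limma adjusted p = 0.0114). Without DN3 replicate 6 or ETPFlt3hi replicate 5 its adjusted p was 0.0521 or 0.0712.

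Sytl2 (1.31 ± 0.25, limma adjusted p = 0.00124), Sema4a (1.27 ± 0.25, limma adjusted p = 0.00196) and Ston2 (1.18 ± 0.30, limma adjusted p = 0.0153) were the other genes higher at DN3. Sema4a leaned on DN3 replicate 5, at 7.10 against 5.74 and 6.19, and differed by 0.89 without it. Ston2 leaned on the same array, at 7.46 against 6.18 and 6.22, and differed by 0.76 without it, with a limma adjusted p of 0.111. Ston2 also lost its call without ETPFlt3hi replicate 4 (0.97, limma adjusted p = 0.0946). With the mean of all its probe sets Ston2 differed by 0.78, under the size needed. Its call ended too with only the 2 populations in the fit (limma adjusted p = 0.0852). With all 36 arrays and a set term Ston2 differed by 0.62 (limma adjusted p = 0.241). Btnl9 was the gene lower at DN3, by -1.45 ± 0.35 (limma adjusted p = 0.0113). Its DN3 arrays were at 5.25, 5.29 and 6.64 and its ETPFlt3hi arrays at 6.83, 7.13 and 7.57. Leaving out DN3 replicate 4, DN3 replicate 5 or ETPFlt3hi replicate 6 ended this call, with limma adjusted p-values of 0.0565, 0.0741 and 0.0721.

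Cpa3 was just short of the size needed. It measured 4.91, 5.42 and 5.65 at DN3 and 6.50, 6.20 and 6.26 at ETPFlt3hi, a difference of -0.99 ± 0.23 (limma adjusted p = 0.00796) without overlap. In set 1 the same step gave -1.52 on the arrays that chose the gene. Side by side, the DN3 minus ETPFlt3hi difference in set 1 was 2.81 for Esm1, 0.61 for Pou2af1 and -1.53 for Btnl9. Aldh1b1 and Emilin2 also passed the p threshold in set 2 but not the size, with just under 1 and -0.93 (limma adjusted p = 0.0304 and 0.0482).

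**Figure D3:**
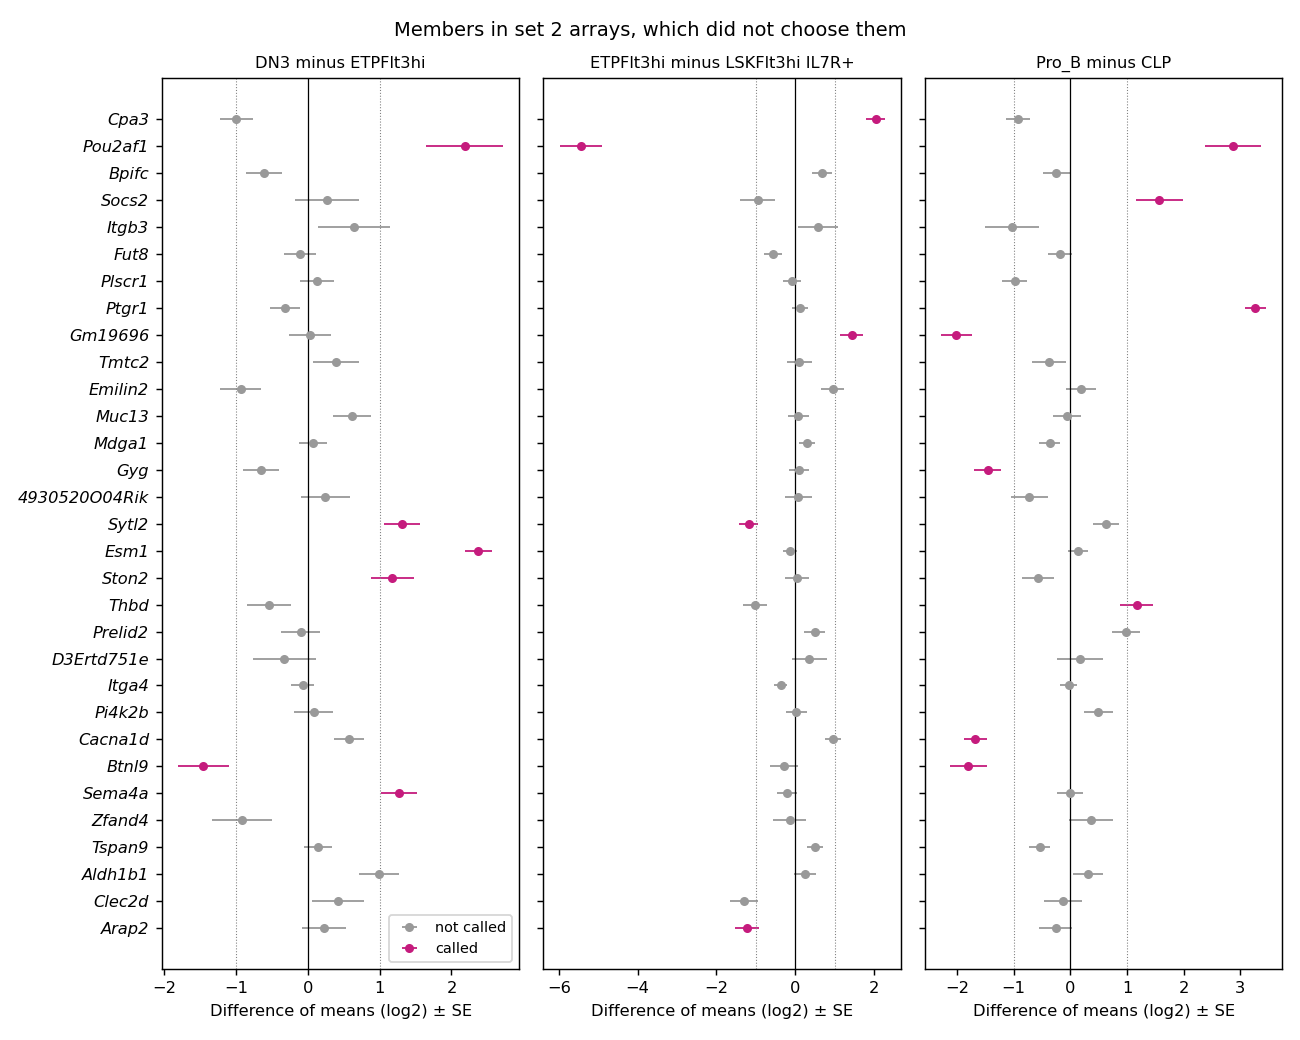
Difference of means (log2, points) with its standard error (bars) for each of the 31 genes in 3 comparisons of set 2: DN3 minus ETPFlt3hi, ETPFlt3hi minus LSKFlt3hi IL7R+ and Pro_B minus CLP; pink points were called and grey points were not. Esm1 is farthest to the right at DN3 (2.37), Pou2af1 is farthest to the left at ETPFlt3hi (-5.45), and Ptgr1 is farthest to the right in Pro_B (3.26).

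On entry to the thymus, 2 members were higher in ETPFlt3hi than in LSKFlt3hi IL7R+ cells of set 2, where 0.649% of all genes were, and 3 were lower, where 0.759% of all genes were. The median difference was 0.07 over the members and 0.01 over all genes. Cpa3 measured 6.50, 6.20 and 6.26 at ETPFlt3hi and 4.20, 4.53 and 4.12 in LSKFlt3hi IL7R+ cells, higher by 2.04 ± 0.23 (limma adjusted p = 1.97e-05). The Cpa3 level was thus already higher before DN2, in samples separate from those that chose it. Cpa3 was the only gene of the 15 on the mast cell list that was higher at this step, and 0 were lower. Gm19696 was higher by 1.44 ± 0.29 (limma adjusted p = 0.00908), with 9.57, 9.11 and 9.62 against 8.12, 8.23 and 7.62. It missed the p threshold without ETPFlt3hi replicate 4 or 6 or LSKFlt3hi IL7R+ replicate 6, at 0.0527, 0.0546 and 0.0671.

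Pou2af1 moved most. Its LSKFlt3hi IL7R+ arrays were at 9.26, 9.32 and 9.48 and its ETPFlt3hi arrays at 3.82, 3.38 and 4.51, a difference of -5.45 ± 0.53 (limma adjusted p = 3.64e-06). With it, 10 of 16 measured B lineage genes were lower at ETPFlt3hi and 1 was higher, with a median of -1.83. Arap2 differed by -1.23 ± 0.31 (limma adjusted p = 0.044) and Sytl2 by -1.19 ± 0.25 (limma adjusted p = 0.0119). Arap2 lost its call whichever 1 of the 6 arrays was left out, with limma adjusted p-values from 0.095 to 0.191. Sytl2 lost its call without ETPFlt3hi replicate 4 or 6 or LSKFlt3hi IL7R+ replicate 4 or 6, with limma adjusted p-values from 0.0554 to 0.101.

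Between the 2 marrow populations more members differed than at any other tested step. In set 2, 7 were higher in LSKFlt3hi IL7R+ cells than in stem cells, where 4.11% of all genes were, and 6 were lower, where 4.72% of all genes were. In set 1, 6 were higher, where 4.08% of all genes were, and 4 were lower, where 4.14% of all genes were. The 2 sets share no arrays. Of the 14 members called in either set, 9 were called in both, 8 of them in the same direction. Among all genes, 1606 were called in set 2 and 1496 in set 1. Of these, 978 were called in both sets, and 1 of the 978 went in opposite directions.

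Muc13, Plscr1 and Socs2 were called lower in LSKFlt3hi IL7R+ cells than in stem cells in both sets. In set 2 Muc13 measured 9.30, 10.43 and 9.26 in stem cells and 6.72, 6.65 and 6.55 in LSKFlt3hi IL7R+ cells, a difference of -3.02 ± 0.27 (limma adjusted p = 1.2e-07), after -3.06 ± 0.20 in set 1 (limma adjusted p = 2.61e-07). Plscr1 measured 8.46, 8.32 and 8.45 against 5.89, 5.90 and 5.30, a difference of -2.71 ± 0.24 (limma adjusted p = 8.49e-08), after -2.51 ± 0.33 in set 1. Socs2 measured 9.14, 8.32 and 8.12 against 7.45, 7.28 and 6.78, a difference of -1.35 ± 0.44 (limma adjusted p = 0.0408), after -2.12 ± 0.35 in set 1. With the mean of all its probe sets Socs2 differed by -0.85 in both sets, under the size needed. In set 2 the Socs2 call was lost without any 1 of 5 arrays, with limma adjusted p-values from 0.0613 to 0.174. It was also lost without the arrays richest in late granulocyte transcripts in set 2, with 0.18, while Muc13 and Plscr1 kept theirs there. In set 1 that setting leaves 1 array in each marrow population, so the spread comes from the 9 arrays that chose the genes alone; there Socs2 (limma adjusted p = 0.133) and Itgb3 (-1.64, limma adjusted p = 0.0958) lost their calls, and nothing is read from the calls kept. Tmtc2 was also called lower in set 2 (-2.02 ± 0.32, limma adjusted p = 0.000128), and Itgb3 in set 1 (-1.16 ± 0.33, limma adjusted p = 0.0295). The Itgb3 call ended without LSKFlt3hi IL7R+ replicate 2 or 3 or stem cell replicate 3, with limma adjusted p-values of 0.0599, 0.125 and 0.125.

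Pou2af1, Arap2, Gm19696, Cacna1d and Aldh1b1 were called higher in LSKFlt3hi IL7R+ cells in both sets. Arap2 measured 8.88, 8.73 and 9.05 in LSKFlt3hi IL7R+ cells of set 2 and 4.24, 3.59 and 4.78 in stem cells, a difference of 4.68 ± 0.31 (limma adjusted p = 1.65e-09), after 4.45 ± 0.52 in set 1. Pou2af1 differed by 5.32 ± 0.53 in set 2 (limma adjusted p = 5.83e-07) and by 2.69 ± 0.35 in set 1. One stem cell array of set 2, replicate 5, held 5.80 of Pou2af1 against 2.93 and 3.38 on the others, and it was also the stem cell array with most late granulocyte transcript. Cacna1d differed by 1.76 ± 0.21 in set 2 and 1.97 ± 0.25 in set 1, and Gm19696 by 1.87 ± 0.29 and 1.15 ± 0.19. With the mean of all its probe sets Cacna1d differed by 0.77 in set 2 and 0.68 in set 1, under the size needed. Without LSKFlt3hi IL7R+ replicate 2, Gm19696 differed by 0.98 in set 1. Aldh1b1 differed by 1.08 ± 0.28 and 1.37 ± 0.21, and by 0.85 and 0.96 in set 2 without LSKFlt3hi IL7R+ replicate 4 or stem cell replicate 6. In set 2 alone, Sytl2 (1.29 ± 0.25) and Clec2d (1.17 ± 0.36, limma adjusted p = 0.031) were also higher, and Clec2d lost its call without any 1 of 4 arrays, with 0.0509 to 0.159.

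**Figure D4:**
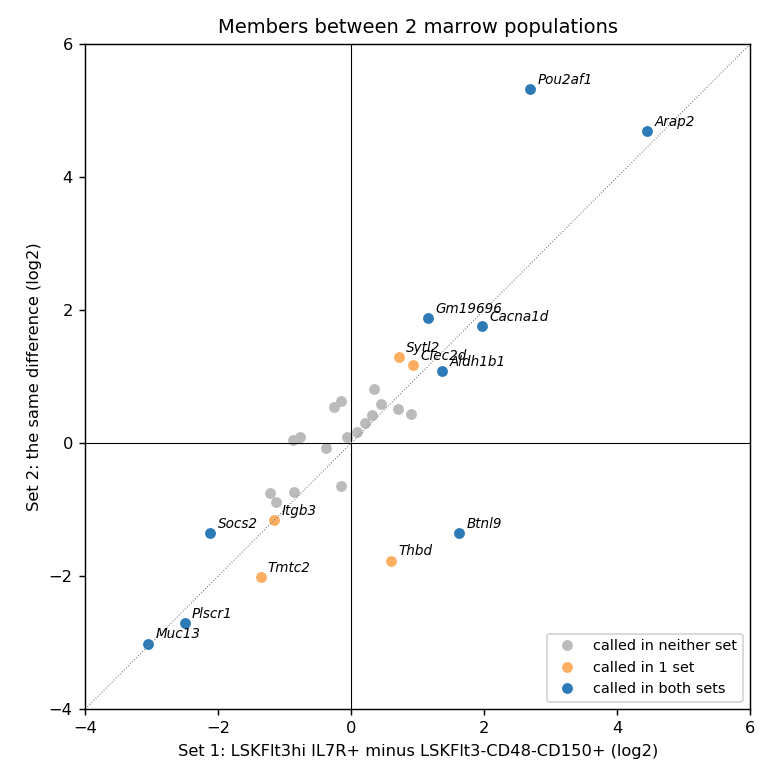
Difference between LSKFlt3hi IL7R+ and LSKFlt3-CD48-CD150+ means (log2) of each member in set 1 (horizontal axis) and set 2 (vertical axis), with points coloured by the number of sets in which the gene was called and a dotted line of equal values. Of the 9 genes called in both sets, 8 lie near the line or in the same quadrant, and Btnl9 lies in the opposite one at 1.62 and -1.36.

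Btnl9 was called in opposite directions. In set 1 it measured 5.25, 5.15 and 4.63 in stem cells and 6.20, 7.45 and 6.26 in LSKFlt3hi IL7R+ cells, higher in the latter by 1.62 ± 0.34 (limma adjusted p = 0.00476). In set 2 it measured 8.35, 9.75 and 8.40 in stem cells and 7.54, 7.47 and 7.41 in LSKFlt3hi IL7R+ cells, a difference of -1.36 ± 0.35 (limma adjusted p = 0.0104). The set 2 call was lost with the mean of all Btnl9 probe sets (-0.85, limma adjusted p = 0.0568). It was also lost with only the 2 populations in the fit (limma adjusted p = 0.0501). Of 978 genes called in both sets, Btnl9 was the 1 with opposite signs. A test of the difference between the sets, added after these values were seen, gave -2.98 ± 0.56 with a limma adjusted p of 0.142, which misses the threshold, and 4 genes of 18193 passed that test. Thbd leaned the same way, with 0.60 in set 1, which was not called, and -1.78 ± 0.31 in set 2 (limma adjusted p = 0.000318).

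Endothelial transcripts moved with both genes. Cdh5, the VE-cadherin that defines endothelium, measured 3.28, 3.04 and 3.76 on the stem cell arrays of set 1 and 7.52, 9.42 and 7.43 on those of set 2, against 4.22 to 4.51 in LSKFlt3hi IL7R+ cells of set 2. Kdr, an endothelial growth factor receptor, measured 3.90 to 4.35 and 7.09 to 10.11 in the same 2 groups. Levels of the 2 sets are not on one scale. The mean over all 11 genes of a stroma and endothelium list was 5.45 to 6.79 on the stem cell arrays of set 1. It was 4.73 to 5.67 on the LSKFlt3hi IL7R+ arrays of that set. In set 2 these ranges were 6.82 to 8.32 and 5.82 to 5.89. On the ETPFlt3hi arrays the mean was also higher in set 2, at 5.70 to 5.86 against 4.86 to 5.05. Within set 2, 6 of the 11 were called lower in LSKFlt3hi IL7R+ cells than in stem cells. Stem cell replicate 5 carried the highest Cdh5, Kdr, Btnl9 (9.75) and Thbd (9.98). Without that array Btnl9 differed by -0.90 (limma adjusted p = 0.0764), and without it and LSKFlt3hi IL7R+ replicate 6, the arrays of each population richest in late granulocyte transcripts, by -0.87 (limma adjusted p = 0.158). Thbd kept its set 2 call in both of these settings. It lost that call with all 36 arrays and a set term (-0.59, limma adjusted p = 0.197), a fit that averages over both sets. What part these transcripts had in the Btnl9 and Thbd values was not tested. On the DN2Kit+ arrays Cdh5 lay between 3.19 and 3.34, and the list averaged 4.80 to 4.89, close to the 4.86 to 5.05 of ETPFlt3hi.

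**Figure D5:**
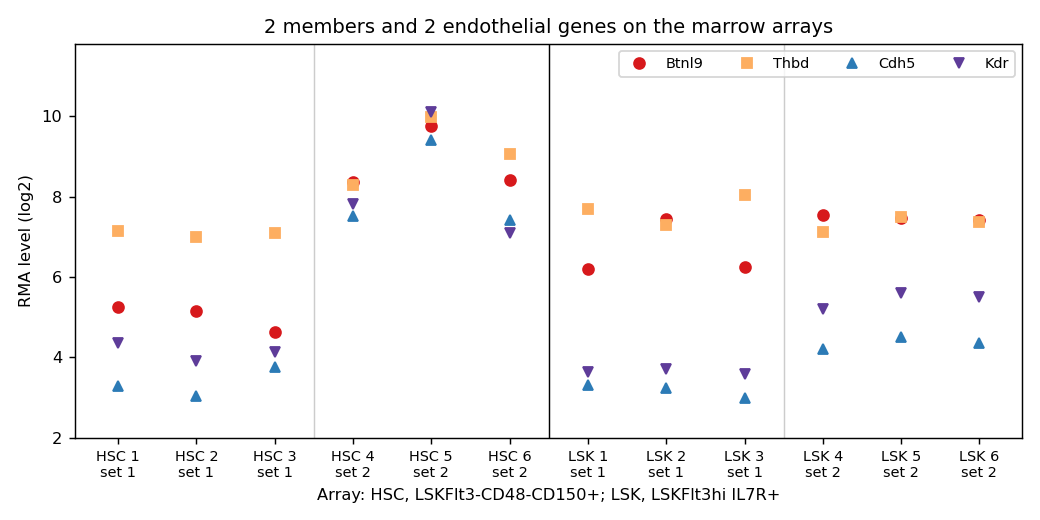
RMA level (log2, vertical axis) of Btnl9 (red circles), Thbd (orange squares) and the endothelial genes Cdh5 (blue triangles) and Kdr (purple inverted triangles) on each of the 12 stem cell (HSC) and LSKFlt3hi IL7R+ (LSK) arrays, grouped by population and set. All 4 genes are highest on HSC 5 of set 2, where Btnl9 is at 9.75 and Thbd at 9.98, and Cdh5 and Kdr are low on every set 1 array.

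Along the B cell branch, 4 members were higher in Pro_B than in CLP, where 3.38% of all genes were, and 4 were lower, where 2.54% of all genes were. Ptgr1 measured 10.50, 10.69 and 9.68 in Pro_B against 6.85 to 7.28 on the 4 CLP arrays, higher by 3.26 ± 0.19 (limma adjusted p = 1.25e-09). Pou2af1 measured 10.09, 11.17 and 11.34 against 7.35 to 8.56, higher by 2.87 ± 0.50 (limma adjusted p = 0.000545), and 14 of 16 B lineage genes were higher with it. Socs2 (1.57 ± 0.41, limma adjusted p = 0.0132) and Thbd (1.17 ± 0.29, limma adjusted p = 0.00849) were the others. Socs2 measured 8.26, 8.36 and 8.57 in Pro_B, and its CLP arrays spread from 5.42 to 7.81. With the mean of all its probe sets it differed by 0.84, under the size needed. The Socs2 and Thbd calls ended without the 2 CLP arrays richest in late granulocyte transcripts, with limma adjusted p-values of 0.112 and 0.054. The Thbd call also ended without Pro_B replicate 2 (limma adjusted p = 0.0507).

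The genes lower in Pro_B were Gm19696, Btnl9, Cacna1d and Gyg. Gm19696 measured 5.58, 6.53 and 5.42 in Pro_B against 7.25 to 8.18 in CLP, a difference of -2.01 ± 0.27 (limma adjusted p = 4.05e-05). Btnl9 differed by -1.80 ± 0.33, Cacna1d by -1.67 ± 0.20 and Gyg by -1.46 ± 0.24, with limma adjusted p-values of 0.00091, 8.54e-06 and 0.000268. Cacna1d lay between 4.20 and 4.55 in Pro_B, between 5.75 and 6.63 in CLP and between 7.41 and 8.43 in the ETPFlt3hi, Adult_ETP and DN3 arrays of the same set. With the mean of all its probe sets Cacna1d differed by -0.92 between Pro_B and CLP, under the size needed.

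Between CLP and LSKFlt3hi IL7R+ cells, and between Adult_ETP and ETPFlt3hi cells, no member was called. In the first comparison 0 of 31 were higher, where 0.011% of all genes were, and 0 were lower, where 0.313% of all genes were. At an unadjusted p under 0.05 in limma, 4 of 31 members passed, against 7.44% of all genes. In the second, 0 were higher, where 0.0055% of all genes were, and 0 were lower, where 0.066% of all genes were, and 9 of 31 passed at an unadjusted p under 0.05 in limma, against 11.5% of all genes. With array weights 3 members were called there. The share of all genes called with these weights is not given here, so nothing particular to the members is read from that count. The closest was Bpifc, at 7.0 and 7.04 in Adult_ETP against 5.39, 5.11 and 6.15 in ETPFlt3hi, a difference of 1.47 (limma adjusted p = 0.0504). Cpa3 was lower in Adult_ETP without overlap, at 5.17 and 5.27 against 6.20 to 6.50, a difference of -1.10 that did not pass (limma adjusted p = 0.146).

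The highest population in set 2 differed from member to member. By mean level, 8 members were highest in DN3, 8 in stem cells, 5 in LSKFlt3hi IL7R+, 5 in Pro_B, 3 in ETPFlt3hi and 2 in Adult_ETP. Esm1 and Sema4a were among those highest in DN3, Muc13 and Plscr1 among those highest in stem cells, and Pou2af1 and Ptgr1 among those highest in Pro_B.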

How the data were processed

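The authors deposited a table of log2 expression values made with RMA, per the submitters' processing notes, a method that subtracts background, makes arrays alike in distribution and sums up the probes of a set. The log base and the RMA version are not given in the sources used here, and the values were read as log2. Total RNA was extracted with Trizol, amplified with a NuGEN kit and labelled with biotin as cDNA, per the labels. The table holds 45101 probe sets, 64 of them controls. Of these, 34945 name 1 gene, and the probe set with the highest mean stood for each of 18193 genes. For 204 probe sets the symbol found no match in the gene table and was kept. The median level of an array was 5.12 to 5.22 for set 1 against 5.84 to 5.95 for set 2. Replicates correlated at 0.970 to 0.990 on average, no 2 arrays were identical, and the number of arrays limits the precision.

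Members were found by the stated rule. All 31 are named, and other genes are named only as list members or as nearest to a threshold. The members and the gene lists were chosen with earlier results of these data known. Tests used lmFit and eBayes of limma 3.58.1 (R 4.3.3), adjusted by Benjamini-Hochberg over all genes, and 1 fit held all populations of a set. On simulated data for the DN3 and ETPFlt3hi comparison over 18193 genes, 88.1% of genes changed by 1.5 and 97% of those changed by 2 were recovered. Same-numbered arrays showed little shared deviation, with correlations of -0.05 to 0.11 for set 1 and -0.19 to 0.21 for set 2. Over 0.1 stood 1 of 30 pairs in set 1 and 2 of 18 pairs among 4 populations of set 2. The main fits therefore used no replicate block. Such values cannot show that same-numbered arrays were unrelated. The unnumbered CLP array was named replicate 4. Promoter windows were searched with Python 3.11.15. Alternatives covered probe set choice, a filter on low levels, centring, quantile normalization, the arrays in the fit, array weights, a replicate block and each array left out.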

Additional observations from a re-analysis of the deposited data

Results flagged for a closer look

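Prelid2 stood apart on 1 CLP array. CLP replicate 1 measured 5.01, and the other 3 CLP arrays measured 5.74 to 5.84, a gap of 0.88 of the whole range, above the limit for 4 samples in Dixon's test. The same array carried the most late granulocyte transcript of all 36 (a mean of 9.50), and the part of that in the Prelid2 value was not tested. All 31 members were checked in the CLP group and 1 stood apart. Chance alone flags about 1 in 20 genes checked, so 1 among 31 is no more than chance gives.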

How the results depend on the processing

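The number of members was 11 when both differences had to reach 1.5. The count of members called between DN3 and ETPFlt3hi in set 2 (6) was 2 when genes with a mean under 6 were left out. Between ETPFlt3hi and LSKFlt3hi IL7R+ cells (5) it was 3 with that filter and 8 with array weights, and 2 to 4 with 1 array left out. Between Adult_ETP and ETPFlt3hi (0) it was 1 with the mean of all probe sets, 1 with centred arrays, 1 with quantile normalization, 1 with all 36 arrays and 3 with array weights, and 0 to 1 with 1 array left out. The filter removed Esm1, Sytl2, Sema4a and Ston2 from the DN3 and ETPFlt3hi count, and Cpa3 and Sytl2 from the ETPFlt3hi and LSKFlt3hi IL7R+ count. Their means over the set 2 arrays were under 6, so these calls were not tested again. For the other settings the cause was not tested. The shares of all genes called under these settings are not given here, so nothing particular to the members is read from these counts. With all 36 arrays and a set term, Btnl9 between LSKFlt3hi IL7R+ and stem cells was 0.13 in place of -1.36, since that fit averages over both sets. Of the single-gene values refitted with 1 array left out, 222 kept their call and 38 lost it, and under the other settings 366 kept it, 31 lost it and 1 reversed. With the replicate block, Btnl9 between DN3 and ETPFlt3hi had a limma adjusted p of 0.0541 and Sytl2 between ETPFlt3hi and LSKFlt3hi IL7R+ of 0.0861, both past the threshold without it; the counts were 5, 5, 13, 9 and 10 members in the 5 comparisons that allow a block, against 6, 5, 13, 8 and 10. The fits without the arrays richest in late granulocyte transcripts were chosen after seeing the data. In set 1 that fit leaves 1 array in each marrow population, assumed to vary like the thymic populations. DN2Kit+ rests on 3 pooled samples of 1 set.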
